A study of Homo sapiens with 12 samples.

Results

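PCYOX1, UBE2V2, MTMR2 and RP2 are 4 protein-coding genes whose transcripts fell by more than 1 on the log2 scale after FAM60A knockdown and by less than that, or not at all, after SDS3 knockdown. They were picked by name, out of 19775 genes with a probe set of their own and 18621 bright enough to test, from the change in each knockdown and the difference between the changes. The values that chose them are given below as a description, with no test. RNA of A549 cells, an established line from a human lung adenocarcinoma, was hybridised to Affymetrix arrays 3 days after the cells received 50 nM of small interfering RNA (siRNA). A FAM60A siRNA was set against a non-targeting siRNA, and an SDS3 siRNA against separate non-targeting controls, with 3 arrays in each of the 4 groups. Each group is the same line with no further genetic change named, the labels name 1 FAM60A siRNA and 1 non-targeting siRNA, and the treatment protocol does not name the SDS3 siRNA. Wells were plated in triplicate and no separate cultures are named, so the p-values below weigh differences against a spread among arrays that may be technical.

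FAM60A, now named SINHCAF, and SDS3, now named SUDS3, both sit in the SIN3-HDAC co-repressor, through which histone deacetylases reach chromatin. The 4 genes belong to separate pathways. PCYOX1 encodes prenylcysteine oxidase, a lysosomal enzyme that breaks the thioether bond of the prenylcysteines released when prenylated proteins are degraded. UBE2V2 (also called MMS2) encodes a ubiquitin-conjugating enzyme variant that lacks the catalytic cysteine and pairs with UBE2N to build ubiquitin chains that signal in DNA damage tolerance. MTMR2 encodes a myotubularin phosphatase that removes a phosphate from phosphoinositides of the endosome and is mutated in a demyelinating form of Charcot-Marie-Tooth disease. RP2 encodes the GTPase-activating protein of ARL3, a small GTPase that releases lipid-modified cargo in the cilium, and is mutated in X-linked retinitis pigmentosa.

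The targeted transcripts check the labels. SINHCAF had log2 signals of 9.36, 9.12 and 9.43 in the FAM60A knockdown, against 11.99, 11.97 and 12.01 in its controls, 15.5% of the control level. SUDS3 had 8.48, 8.32 and 8.62 in the SDS3 knockdown, against 10.11, 10.02 and 10.03 in its controls, 33.4% of the control level. Both targets were therefore low on the arrays labelled as their knockdown, and the SDS3 depletion was the shallower of the pair. SINHCAF was 0.35 higher (log2) in the SDS3 knockdown than in its controls (limma adjusted p = 0.00291), or 0.20 over all its probe sets, while SUDS3 differed by 0.04 in the FAM60A knockdown (limma adjusted p = 0.698). Median probe set signals (linear) were 186 to 192.6 in the FAM60A experiment and 96.8 to 98.3 in the SDS3 experiment, so levels were compared within an experiment. Of the epithelial markers, KRT8, KRT18, KRT7, KRT19, EPCAM and CDH1 were all measured, and among immune markers PTPRC stayed below the level of the test while CD3E and CD14 passed it. CD3E averaged 7.72 (log2) in the FAM60A knockdown and 7.82 in its controls, and CD14 8.52 and 8.33, with 7.36 and 7.12 in the SDS3 knockdown and 7.26 and 7.39 in its controls. The summed linear signal of fibroblast markers was 533 to 595 in the FAM60A knockdown, against 650 to 694 in its controls, and 272 to 282 in the SDS3 knockdown, against 323 to 327 in its controls. In the SDS3 experiment LUM averaged 5.98 (log2) in the knockdown and 6.83 in the controls, whereas DCN had 6.53 and 6.44 and PDGFRB 6.91 and 6.96. Summed epithelial signal was 80993 to 84768 in the FAM60A knockdown and 81048 to 84908 in its controls, against 67841 to 68597 in the SDS3 knockdown and 73282 to 75253 in its controls. That sum is carried by the bright keratins, and the dimmer markers moved apart from it. EPCAM averaged 8.72 in the FAM60A knockdown and 9.94 in its controls, CDH1 10.07 and 10.56, and KRT19 10.72 and 10.22. CDH1 averaged 7.07 in the SDS3 knockdown and 8.59 in its controls, EPCAM 8.77 and 9.35, and KRT19 9.71 and 10.06. Immune markers summed to 587 to 643 in the FAM60A knockdown and 573 to 584 in its controls, and to 315 to 330 in the SDS3 knockdown and 328 to 367 in its controls. Endothelial markers summed to 623 to 750 in the FAM60A knockdown and 644 to 672 in its controls, and to 309 to 342 in the SDS3 knockdown and 302 to 322 in its controls. Control probe sets for poly-A spike-ins were 0.32 brighter (log2) in the SDS3 knockdown than in its controls and 0.10 brighter in the FAM60A knockdown (exact permutation p = 0.1 and 0.5, where 0.1 is the smallest possible), so scaling to them would lower each change by that amount. Whether these shifts have a part in the values of the 4 genes was not tested.

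The 4 genes were chosen for their falls in the FAM60A knockdown, so falling together there is no separate sign of shared control. The 250 bases before the most upstream annotated start of each gene are shown as background. They come from RefSeq (GRCh38.p14), read 5′ to 3′ on the gene's strand, with 3 of the 4 genes matched and UBE2V2 named only. Capitals mark matches to 6 motifs searched on both strands: the E-box CACGTG, the GC box GGGCGG, the CCAAT box, the ETS core CCGGAA, the TATA box TATAAA and the NRF1 palindrome. No matches overlapped.
PCYOX1, chr2:70257887-70258136, plus strand: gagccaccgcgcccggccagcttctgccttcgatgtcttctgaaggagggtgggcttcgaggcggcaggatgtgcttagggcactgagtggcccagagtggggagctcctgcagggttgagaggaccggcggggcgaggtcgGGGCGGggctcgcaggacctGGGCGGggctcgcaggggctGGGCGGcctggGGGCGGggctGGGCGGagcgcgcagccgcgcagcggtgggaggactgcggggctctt
MTMR2, chr11:95924108-95924357, minus strand: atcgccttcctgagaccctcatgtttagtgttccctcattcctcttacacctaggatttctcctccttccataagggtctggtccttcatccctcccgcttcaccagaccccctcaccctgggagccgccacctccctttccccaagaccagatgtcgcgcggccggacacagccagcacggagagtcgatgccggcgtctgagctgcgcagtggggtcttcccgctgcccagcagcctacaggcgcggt
RP2, chrX:46836793-46837042, plus strand: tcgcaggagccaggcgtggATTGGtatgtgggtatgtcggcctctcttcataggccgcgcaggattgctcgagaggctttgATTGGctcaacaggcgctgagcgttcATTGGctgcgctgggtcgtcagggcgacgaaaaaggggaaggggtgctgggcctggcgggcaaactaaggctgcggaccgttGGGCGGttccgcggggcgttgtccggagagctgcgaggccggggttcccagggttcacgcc
PCYOX1 holds 5 GC boxes, whose first bases lie 108, 88, 68, 57 and 47 bases before the start, and RP2 holds 1 at 61. RP2 also holds 3 CCAAT matches, read on the other strand as ATTGG, at 231, 169 and 143. MTMR2 holds none of the 6 motifs in this window, so no motif searched is common to the 3 sequences. Among 27326 RefSeq promoters of the same length, 42.2% held GGGCGG and 33.1% held CCAAT. The ETS core CCGGAA was held by 14.8%, TATAAA by 11.2%, CACGTG by 6.47% and the NRF1 palindrome by 1.13%. The GC content was 74% for PCYOX1, 62% for MTMR2 and 64.8% for RP2, where the median promoter had 57.6%. A match is a run of letters and not a measured binding site.

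PCYOX1 lost the most transcript of the 4. Its log2 signal was 9.51, 9.82 and 10.01 on the FAM60A knockdown arrays, against 12.17, 12.25 and 12.17 on the control arrays. The 3 knockdown arrays lay far under the controls, and they were spread more widely than the controls were. The means were 9.78 ± 0.255 in the FAM60A knockdown and 12.20 ± 0.0468 in its controls (SD, n = 3 each), a change of -2.42 (SE 0.106), which left 18.7% of the control level. PCYOX1 stood in the SDS3 knockdown at 12.08, 12.04 and 12.19, against 12.06, 11.93 and 11.91 in its controls. Those groups overlapped, and the mean change was 0.14 (SE 0.0643), or -0.18 with the arrays scaled to the poly-A spike-ins.

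UBE2V2 had log2 signals of 9.98, 10.11 and 9.97 in the FAM60A knockdown, against 12.41, 12.30 and 12.34 in its controls. All knockdown arrays were well below all controls, with little spread in either group. The change was -2.33 (SE 0.062), or 19.9% of the control level. The SDS3 knockdown signals were 11.27, 11.22 and 11.24, against 11.55, 11.61 and 11.60 in its controls. These did not overlap either: UBE2V2 changed by -0.34 (SE 0.0489) there, to 78.9% of the control level, or by -0.66 with the arrays scaled to the poly-A spike-ins.

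MTMR2 stood at 8.80, 9.02 and 8.89 in the FAM60A knockdown, against 11.26, 11.14 and 11.20 in its controls. The gap was again wider than the spread within either group, with a change of -2.30 (SE 0.0676) and 20.4% of the control level left. Its signals in the SDS3 knockdown were 9.75, 9.70 and 9.91, against 10.37, 10.36 and 10.43 in its controls. All 3 SDS3 knockdown arrays were below their controls, by a mean of -0.60 (SE 0.0658), at 65.9% of the control level, or by -0.92 with the arrays scaled to the poly-A spike-ins. A fall seen only in the FAM60A knockdown thus describes PCYOX1 and RP2, and does not describe UBE2V2 and MTMR2. On the log2 scale the SDS3 change of UBE2V2 was 14.6% of its FAM60A change for this probe set and 44.5% and 37.7% for its others. For MTMR2 the share was 26.2% for this probe set and 36.9% and 35.9% for its others.

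RP2 had the shallowest fall of the 4 in the FAM60A knockdown and moved the opposite way in the SDS3 knockdown. Its log2 signals were 8.40, 8.52 and 8.25 in the FAM60A knockdown, against 9.83, 9.55 and 9.84 in its controls, a change of -1.35 (SE 0.0918) to 39.2% of the control level. The SDS3 knockdown arrays read 9.45, 9.37 and 9.11, against 8.78, 8.95 and 9.00 in its controls. Every SDS3 knockdown array was above every SDS3 control, by a mean of 0.40 (SE 0.0970), or 132% of the control level. With the arrays scaled to the poly-A spike-ins that change was 0.076.

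**Figure D1:**
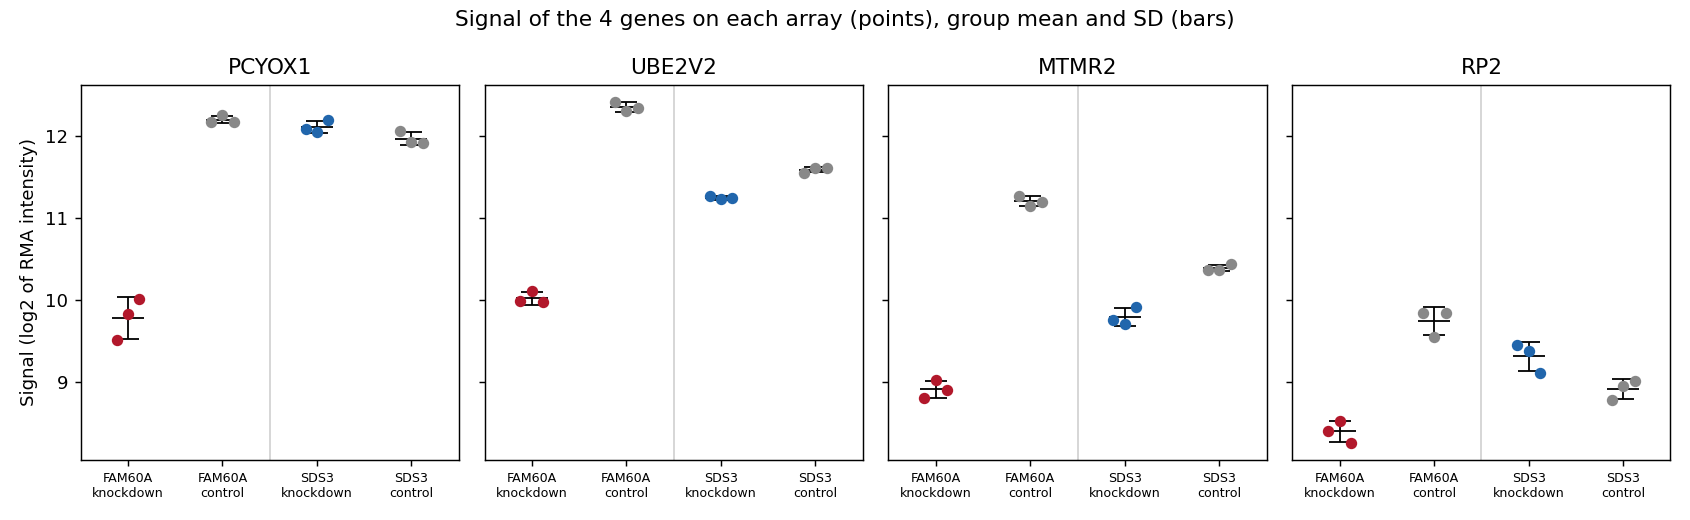
Log2 signal of PCYOX1, UBE2V2, MTMR2 and RP2 on each array, with knockdown left of control in each experiment, points for arrays and bars for the group mean and SD (n = 3). In the FAM60A experiment the knockdown points of all 4 genes lie below the control points, while in the SDS3 experiment PCYOX1 overlaps, UBE2V2 and MTMR2 lie lower and RP2 lies higher.

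All 4 genes lay below every control array in the FAM60A knockdown, as did 24.4% of all 18621 tested genes, and nothing is read from that count because the contrast chose the genes. In the SDS3 knockdown 2 of the 4 lay below every control, against 25.2% of tested genes, and 1 lay above every control, against 22.4%. None of the 4 fell by 1 or more there, where 0.924% of tested genes did. The SDS3 change also had a part in choosing the genes, so nothing is read from these counts either. Limma called 34.6% of tested genes in either direction in that comparison. A log2 fall of 1 or more after FAM60A knockdown was met by 108 genes, 0.58% of those tested, and one of 2 or more by 9 genes, 0.0483%. By size of fall PCYOX1 was number 3, UBE2V2 number 6, MTMR2 number 7 and RP2 number 37. The order of PCYOX1, UBE2V2 and MTMR2 rests on differences within the combined SEs of their changes, whereas RP2 lies well apart. The other genes at -2 or below were SINHCAF itself at -2.69, PTX3 at -2.50, SERPINB9 at -2.36, DDC at -2.34, AQP3 at -2.24 and FAIM at -2.12. Their SDS3 changes were 0.35 for SINHCAF, -0.68 for PTX3, -1.11 for SERPINB9, -1.12 for DDC, -1.68 for AQP3 and -0.50 for FAIM. RP2 stood between NOPCHAP1, with -1.35 in the FAM60A knockdown and -0.18 in the SDS3 knockdown, and OSTM1, with -1.35 and 0.01.

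Of the 108 genes, 49 (45.4%) had an SDS3 change above -0.5, 15 had one above 0, and 31 also fell by 1 or more in the SDS3 knockdown. Their median SDS3 change was -0.57, where the median over all tested genes was 0.0064. PCYOX1, UBE2V2 and RP2 are among the 49, and MTMR2, at -0.60, is just outside. In the FAM60A change minus the SDS3 change, PCYOX1 had -2.56 (SE 0.138), UBE2V2 -1.99 (SE 0.0769), RP2 -1.75 (SE 0.146) and MTMR2 -1.69 (SE 0.0966). These were numbers 2, 3, 5 and 6 of the 18621 genes, and 13 genes in all had a difference of -1.5 or below. Limma called 9.99% of tested genes as negative in this difference.

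**Figure D2:**
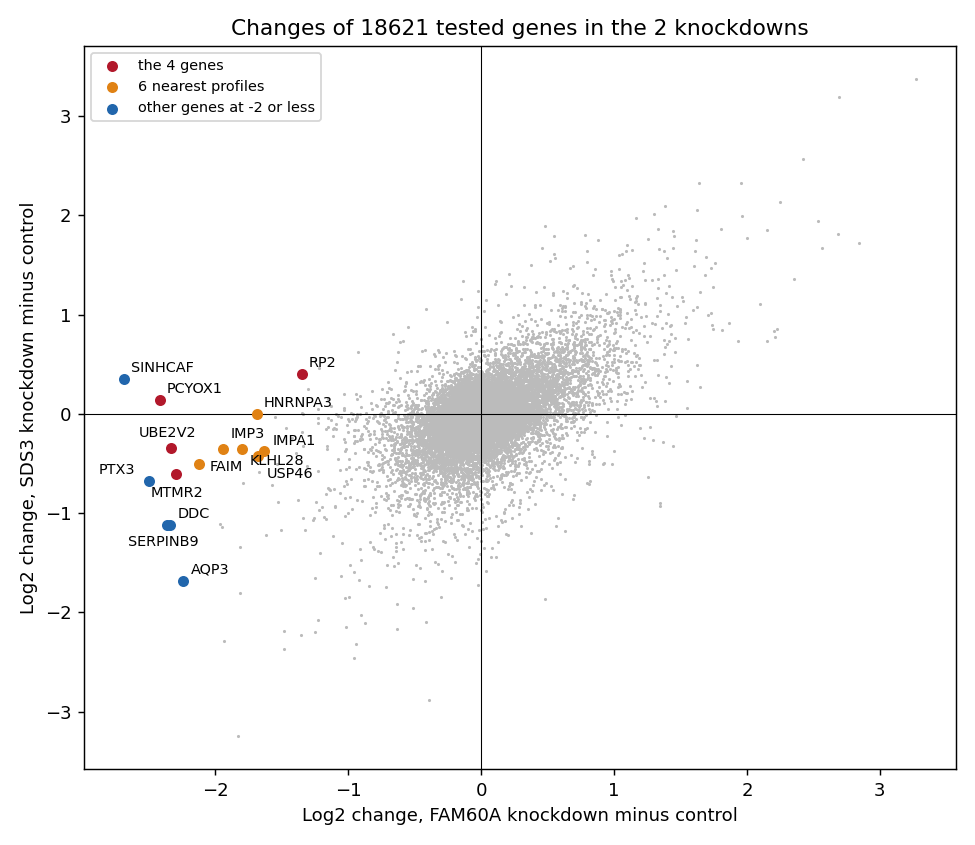
Log2 change in the FAM60A knockdown (horizontal) against that in the SDS3 knockdown (vertical) for 18621 tested genes in grey, with the 4 genes, the 6 genes of nearest profile and the further genes at -2 or below in colour. PCYOX1 and RP2 lie above the horizontal line at 0 and UBE2V2 and MTMR2 below it, while SERPINB9, DDC and AQP3 lie at or under -1 on both axes.

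Other probe sets of the same genes gave a further reading of the transcripts, though on the same RNA. Of 13 probe sets that name a member, 10 name it alone, and 9 of these 10 fell by 1 or more in the FAM60A knockdown with all knockdown arrays below all controls. Over all 48347 probe sets above the level, 20.7% had such arrays below their controls and 0.393% fell by 1 or more. In the SDS3 knockdown 6 of the 10 lay below their controls, against 20.4% of all probe sets, and 0 fell by 1 or more. As the genes were chosen for this contrast, the counts are a description. The 10 include the brightest probe set of each gene, whose FAM60A fall was fixed by that choice. Only the others of the 10 give a further reading. All of these except the second of RP2 fell by 1 or more in the FAM60A knockdown. As a description, 59 other genes at -1 or below had 113 further probe sets above the level. Of these 113, 18 (15.9%) were also at -1 or below and 98 (86.7%) were below 0. The 113 leave out the brightest probe set of each gene, so they are no base for the 9 of 10.

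The further PCYOX1 probe set gave 5.73, 6.18 and 6.43 in the FAM60A knockdown, against 8.33, 8.24 and 8.46 in its controls. That is a change of -2.23, and the same probe set changed by 0.14 in the SDS3 knockdown, so the PCYOX1 readings lie close together in both experiments. The further UBE2V2 probe sets changed by -1.44 and -1.46 in the FAM60A knockdown and by -0.64 and -0.55 in the SDS3 knockdown. For the further MTMR2 probe sets, the FAM60A changes were -1.80 and -1.45 and the SDS3 changes -0.66 and -0.52. All 3 MTMR2 probe sets carry a suffix for sequence shared with another transcript, although the annotation gives MTMR2 alone.

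Probe sets of UBE2V2 and MTMR2 agreed in direction in both knockdowns, but the gap between the knockdowns depended on which was read. The FAM60A minus SDS3 difference of UBE2V2 was -1.99 for its brightest probe set and -0.80 and -0.91 for the others, and that of MTMR2 was -1.69, -1.13 and -0.93. RP2 probe sets disagreed. The second read 5.81, 5.72 and 5.79 in the FAM60A knockdown, against 5.70, 5.91 and 5.70 in its controls, a change of 0.0069, and its SDS3 change was -0.20. It was dim, with 19.4% of probe sets dimmer in the FAM60A controls, so the RP2 fall rests on 1 probe set.

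UBE2V2 also shares 3 probe sets with its relative UBE2V1 and with PEDS1 and the PEDS1-UBE2V1 readthrough, and these cannot be assigned to one gene. These shared probe sets changed by -0.16, -0.21 and -0.33 in the FAM60A knockdown and by 0.20, -0.047 and -0.00062 in the SDS3 knockdown. A further probe set, which names UBE2V1 and the PEDS1 transcripts without UBE2V2, changed by 0.053 in the FAM60A knockdown and by -0.046 in the SDS3 knockdown. The deep fall was therefore read on the probe sets of UBE2V2 alone.

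**Figure D3:**
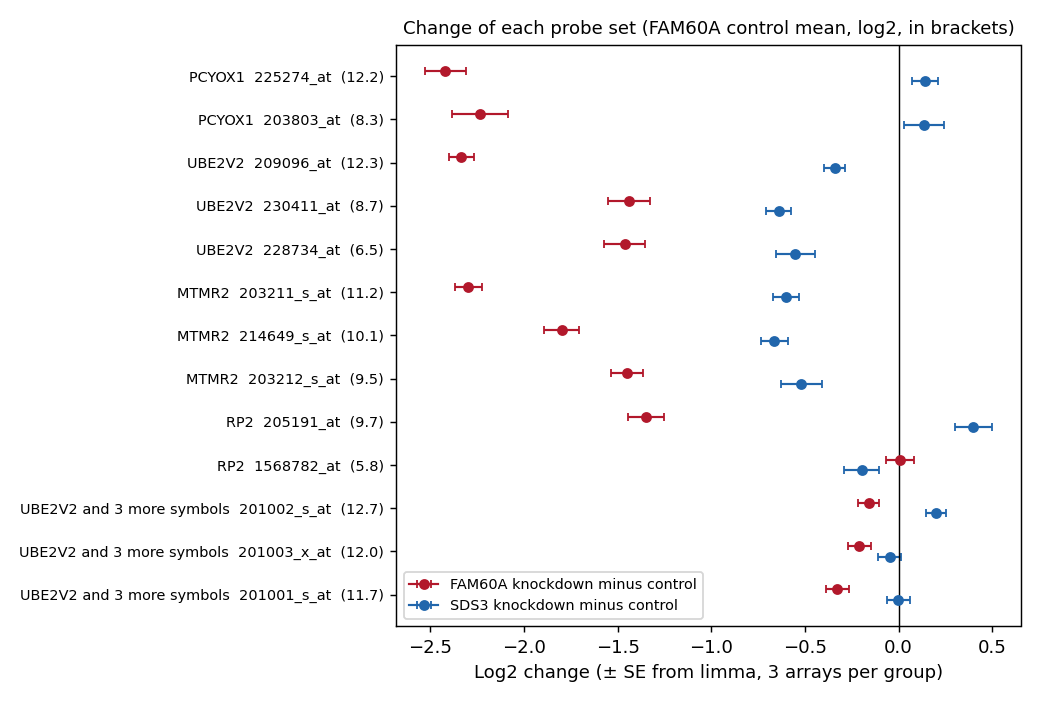
Log2 change with its SE of each probe set that names PCYOX1, UBE2V2, MTMR2 or RP2, in the FAM60A knockdown and in the SDS3 knockdown, 3 arrays per group. Of the 10 probe sets naming 1 gene, 9 lie at -1 or below in the FAM60A knockdown and none does in the SDS3 knockdown. The second RP2 probe set lies near 0. The 10 include the brightest probe set of each gene, on which the gene was chosen.

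The likeness of the 4 profiles was measured as the root mean square (RMS) difference over the 12 arrays, each gene taken as log2 signal minus the mean of its own experiment's controls. UBE2V2 and MTMR2 were the closest pair at 0.142, followed by PCYOX1 and UBE2V2 at 0.276 and PCYOX1 and MTMR2 at 0.391. RP2 was farthest from the others, at 0.588 from PCYOX1, 0.624 from UBE2V2 and 0.703 from MTMR2. The 6 other genes nearest to the mean profile of the 4 were IMP3 (0.173), KLHL28 (0.216), HNRNPA3 (0.221), FAIM (0.231), USP46 (0.273) and IMPA1 (0.277). IMP3 changed by -1.94 in the FAM60A knockdown and -0.35 in the SDS3 knockdown, KLHL28 by -1.80 and -0.36, and HNRNPA3 by -1.69 and -0.00015. USP46 changed by -1.68 and -0.43, and IMPA1 by -1.63 and -0.37. These came from the same values, so their likeness is no separate evidence.

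The further probe sets of these 6 genes did not fall as far. The 2 of HNRNPA3 changed by -1.0 and -0.51 in the FAM60A knockdown. The 2 of KLHL28 changed by -0.0053 and -0.13. The 3 of USP46 changed by -0.40, 0.087 and 0.076, and IMP3, FAIM and IMPA1 had no further probe set.

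Partners and relatives of the 4 proteins were read next. Their own values did not pick the 4 genes, but they were listed with earlier results of these data known, so limma's p-values for them are not independent evidence. Of 15 with a probe set of their own, 5 rose and 1 fell in the FAM60A knockdown, where 19.2% of all tested genes rose and 17.6% fell. The sixteenth, UBE2V1, is the relative covered by shared probe sets above. In the SDS3 knockdown ICMT, RCE1, SBF2, MTMR1, ARL3 and UNC119 rose and RAD18 fell, where 15.8% of all tested genes rose and 18.8% fell. RCE1 rose by 0.18 and SBF2 by 0.21 there (limma adjusted p = 0.0457 and 0.0178). ARL3 rose by 0.16 and UNC119 by 0.24 (limma adjusted p = 0.0374 and 0.00655). Averaging probe sets ended the SDS3 calls of RCE1, SBF2 and RAD18, and leaving out any SDS3 array ended that of ARL3. The FAM60A changes of the 15 ran from -0.40 to 0.34, short of the smallest fall among the 4 genes. Only 0.58% of all tested genes fell by 1 or more there, and the 4 were chosen for such falls. Nothing is therefore read from that gap.

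Around PCYOX1, its close relative PCYOX1L rose by 0.33 in the FAM60A knockdown (limma adjusted p = 0.000692). It changed by -0.15 in the SDS3 knockdown (limma adjusted p = 0.104), and the difference was 0.49 (limma adjusted p = 0.000649). ICMT, which methylates the prenylated cysteine, changed by 0.34 in the FAM60A knockdown and 0.46 in the SDS3 knockdown (limma adjusted p = 0.000743 and 0.000204). With probe sets of shared sequence left out, ICMT read -0.12 and -0.024, so its direction depends on the probe set. The proteases ZMPSTE24 and RCE1, which trim prenylated proteins, changed by 0.025 and 0.06 in the FAM60A knockdown (limma adjusted p = 0.774 and 0.394).

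UBE2N, the catalytic partner of UBE2V2, changed by -0.11 in the FAM60A knockdown and 0.003 in the SDS3 knockdown (limma adjusted p = 0.133 and 0.971). UBE2V2 was 5.04-fold lower in the FAM60A knockdown. With its probe sets averaged, UBE2N changed by -0.14 in the FAM60A knockdown and passed limma's threshold. Without probe sets of shared sequence its SDS3 change was 0.20 and passed, while its FAM60A change was -0.14 and did not. Its difference between knockdowns passed in both settings, at -0.18 and -0.34, but not in the main fit, at -0.12. RAD18, the ligase that starts ubiquitination of the replication clamp PCNA, fell by 0.40 in the FAM60A knockdown (limma adjusted p = 0.00107). Its SDS3 change was -0.21 and its difference between knockdowns -0.19 (limma adjusted p = 0.183 for the difference). Averaged over its probe sets RAD18 changed by -0.25 and -0.063. RNF8, a ligase that works with UBE2N at DNA breaks, changed by -0.11 and 0.067 (limma adjusted p = 0.193 and 0.52).

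The inactive myotubularins SBF1 and SBF2, which bind MTMR2, changed by 0.18 and 0.084 in the FAM60A knockdown (limma adjusted p = 0.029 and 0.445), and the SBF1 call was lost without FAM60A knockdown array 1 or 2 or control array 1 or 2 (limma adjusted p = 0.0627 to 0.0936). MTMR1, the nearest relative of MTMR2 together with MTM1, rose by 0.59 in the SDS3 knockdown (limma adjusted p = 5.48e-05), or by 0.29 over all its probe sets. Its FAM60A change was 0.18 (limma adjusted p = 0.0239), and MTM1 changed by -0.0079 in the FAM60A knockdown and 0.15 in the SDS3 knockdown. ARL3, the GTPase on which RP2 acts, changed by -0.14 in the FAM60A knockdown (limma adjusted p = 0.148), and its relative ARL2 by 0.16 (limma adjusted p = 0.0600). UNC119 and PDE6D, carriers of lipid-modified proteins, changed by 0.21 and 0.097 in the FAM60A knockdown (limma adjusted p = 0.0191 and 0.197). The FAM60A call of MTMR1 was lost without any 1 of the knockdown arrays or without control array 1 or 3 (limma adjusted p = 0.0528 to 0.0883). That of UNC119 was lost without knockdown array 2 or control array 1 or 3 (limma adjusted p = 0.06 to 0.0828).

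**Figure D4:**
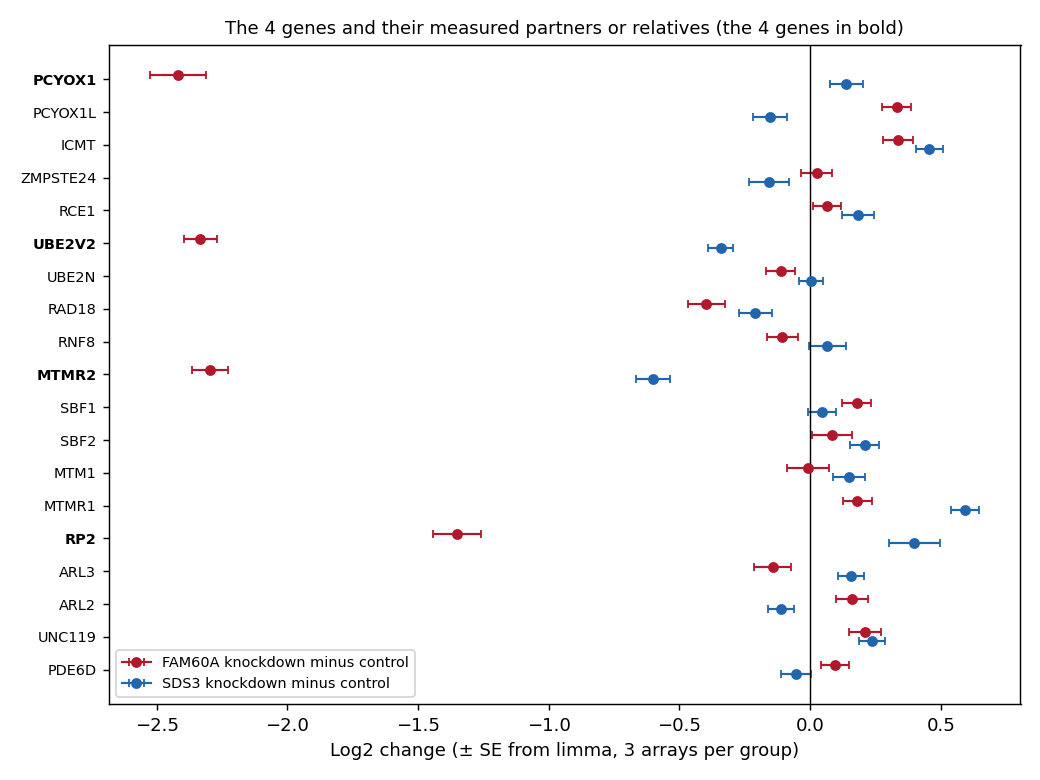
Log2 change with its SE in the FAM60A knockdown and in the SDS3 knockdown, 3 arrays per group, for the 4 genes (bold) and 15 partners or relatives listed under each. The 4 genes lie between -2.42 and -1.35 in the FAM60A knockdown, whereas the partners lie between -0.40 and 0.34. The 4 genes were chosen for these falls.

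Wider lists of the 4 pathways held 107 genes, 94 of them tested. In the FAM60A knockdown 26 rose and 26 fell, with a median change of 0.025. Over all tested genes 3577 (19.2%) rose and 3278 (17.6%) fell, with a median of -0.023. In the SDS3 knockdown 17 of the 94 rose and 19 fell, with a median of -0.016, against 15.8% and 18.8% of all tested genes. These shares over all tested genes are also the base for the counts of each list below, and no list was tested as a set. The difference between knockdowns was positive for 16 and negative for 14, against 25.3% of all tested genes called in either direction. The balance of directions depends on the scaling. Scaled to the hybridisation spike-ins, 24 rose and 13 fell in the FAM60A knockdown and 9 rose and 27 fell in the SDS3 knockdown, and scaled to the poly-A spike-ins the counts were 5 and 18 in the FAM60A knockdown and 3 and 53 in the SDS3 knockdown.

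Of 13 genes of prenyl protein processing tested, 6 rose and 2 fell in the FAM60A knockdown, with a median of 0.12. PTAR1, a prenyltransferase subunit, rose by 0.44 (limma adjusted p = 0.000151). RABGGTB and PGGT1B, which are prenyltransferase beta subunits, each fell by 0.40 (limma adjusted p = 0.000354 and 0.00162). With the probe sets of a gene averaged, PTAR1 changed by 0.28 and PGGT1B by -0.14, and the PGGT1B call was lost (limma adjusted p = 0.0898). In the SDS3 knockdown 3 rose and 2 fell, with a median of -0.10, and RABGGTB was again lower by -0.30 (limma adjusted p = 0.00371). PGGT1B also fell there, by 0.25 (limma adjusted p = 0.0298). Leaving out any 1 of 5 arrays ended that PGGT1B call (limma adjusted p = 0.0544 to 0.107).

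Of 17 genes of UBE2N-dependent chain building and PCNA ubiquitination, 3 rose and 6 fell in the FAM60A knockdown, and 2 rose and 4 fell in the SDS3 knockdown. SHPRH, a ligase that extends the chain on PCNA, fell by 0.80 in the FAM60A knockdown (limma adjusted p = 1.96e-06) and changed by -0.015 in the SDS3 knockdown, a difference of -0.79 (limma adjusted p = 2.51e-06). RNF168, a ligase of the DNA break response, changed by -0.097 in the FAM60A knockdown and fell by 0.67 in the SDS3 knockdown (limma adjusted p = 7.86e-05), or by 0.21 over all its probe sets (limma adjusted p = 0.0408). TAB3, which binds such chains, rose by 0.33 in the FAM60A knockdown (limma adjusted p = 0.00565). BRCC3, a deubiquitinase of these chains, fell by 0.32 in the SDS3 knockdown (limma adjusted p = 0.00269). It also fell by 0.28 in the FAM60A knockdown (limma adjusted p = 0.0261). Leaving out any 1 of 4 arrays ended its FAM60A call (limma adjusted p = 0.0555 to 0.0928).

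Among 24 other ubiquitin-conjugating (E2) enzymes tested, 4 rose and 11 fell in the FAM60A knockdown, with a median of -0.11, and 4 rose and 4 fell in the SDS3 knockdown. UBE2H rose by 0.76 and UBE2Q2 by 0.70 in the FAM60A knockdown, while UBE2R2 fell by 0.71 (limma adjusted p = 2.37e-06, 2.46e-05 and 3.47e-06). Over all its probe sets UBE2H changed by 0.33. In the SDS3 knockdown UBE2Q2 rose by 0.66 and UBE2L6 fell by 0.49 (limma adjusted p = 0.000141 and 0.000162). UBE2L6 also fell by 0.30 in the FAM60A knockdown (limma adjusted p = 0.0119). That call was lost without FAM60A control array 1 (limma adjusted p = 0.0519). UBE2R2 also fell by 0.18 in the SDS3 knockdown (limma adjusted p = 0.0367). With its probe sets averaged, that UBE2R2 call was lost (limma adjusted p = 0.0892).

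Of 13 other myotubularins tested, 5 rose and 1 fell in the FAM60A knockdown, and 3 rose and 2 fell in the SDS3 knockdown. MTMR6 rose by 0.53 in the FAM60A knockdown and by 0.84 in the SDS3 knockdown (limma adjusted p = 2.11e-05 and 9.56e-05), the second value being 0.54 over all its probe sets. MTMR11 and MTMR4 rose by 0.31 each in the FAM60A knockdown (limma adjusted p = 0.00585 and 0.0192), and the MTMR4 call was lost without FAM60A knockdown array 2 (limma adjusted p = 0.0528). Of 16 further genes of phosphoinositide turnover, 3 rose and 4 fell in the FAM60A knockdown and 2 rose and 4 fell in the SDS3 knockdown. INPP4A, a phosphoinositide phosphatase, rose by 0.71 in the FAM60A knockdown and by 0.80 in the SDS3 knockdown (limma adjusted p = 1.44e-05 and 1.88e-05), or by 0.38 and 0.31 over all its probe sets. Its relative INPP4B changed by 0.60 in the FAM60A knockdown and -0.35 in the SDS3 knockdown (limma adjusted p = 1.02e-05 and 0.00583). Over all its probe sets the SDS3 change of INPP4B was -0.084 and its call was lost (limma adjusted p = 0.296). SACM1L, another phosphatase, fell by 0.51 and by 0.36 (limma adjusted p = 0.000215 and 0.00365).

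Of 15 genes of ARL2, ARL3 and their cargo, 5 rose and 3 fell in the FAM60A knockdown and 5 rose and 3 fell in the SDS3 knockdown. CFAP36, a ciliary protein that binds ARL3, rose by 0.38 in the FAM60A knockdown and fell by 0.56 in the SDS3 knockdown (limma adjusted p = 0.000467 and 6.37e-05). TBCD, a tubulin-folding cofactor that binds ARL2, rose by 0.33 in the FAM60A knockdown (limma adjusted p = 0.000968), or by 0.18 over all its probe sets. It also rose by 0.27 in the SDS3 knockdown (limma adjusted p = 0.0329). With its probe sets averaged, the SDS3 change was 0.093 and the call was lost (limma adjusted p = 0.176). TBCCD1, a relative of RP2 in sequence, fell by 0.40 in the FAM60A knockdown and by 0.37 in the SDS3 knockdown (limma adjusted p = 0.00218 and 0.00233).

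The nearest protein-coding genes on each side of the 4 genes, in RefSeq gene order, were read to see whether the falls were shared along the chromosome. Of 16 such genes, 14 had a probe set of their own. In the FAM60A knockdown 2 of these fell and 2 rose, where 17.6% of all tested genes fell and 19.2% rose. Next to PCYOX1 on chromosome 2, SNRPG, a core component of the splicing machinery, fell by 0.32 (limma adjusted p = 0.000849), TIA1 changed by 0.14 and C2orf42 by 0.028. Next to UBE2V2 on chromosome 8, PRKDC changed by 0.018, MCM4 by -0.16, CLXN by 0.051 and SNAI2 by 0.17, with limma adjusted p-values from 0.0687 to 0.902. Next to MTMR2 on chromosome 11, FAM76B changed by -0.11, CEP57 by -0.0042 and CCDC82 by -0.18, and MAML2 by 0.26 (limma adjusted p = 0.0140), a call lost without FAM60A knockdown array 1 or control array 2 or 3 (0.0505 to 0.0549) and with its probe sets averaged (0.17, limma adjusted p = 0.0985). Next to RP2 on chromosome X, CHST7, a carbohydrate sulfotransferase, rose by 0.99 in the FAM60A knockdown (limma adjusted p = 7.11e-07) and by 0.44 in the SDS3 knockdown (limma adjusted p = 0.000225). JADE3 fell by 0.26 in the FAM60A knockdown (limma adjusted p = 0.00968), and RGN changed by 0.066.

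The labels name a single FAM60A siRNA, so an effect of FAM60A depletion on these 4 transcripts and an effect of this siRNA on sequences other than FAM60A cannot be told apart. The siRNA sequences were not used here, so no match to the 4 transcripts was looked for. The SDS3 knockdown differed in its siRNA, in its depth of target loss and in its set of arrays, and these differences cannot be told apart from the identity of the targeted gene. Fewer cells of a kind and less RNA per cell cannot be told apart in these bulk samples.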

How the data were processed

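RNA of 12 A549 samples was hybridised to Affymetrix arrays of 54675 probe sets. The deposited values are linear probe set intensity after RMA by the authors, per the submitters' processing notes, which give no version or settings; RMA removes a change common to most transcripts. The design assumed log2 values; the deposited ones proved linear, so their log2 was taken. A gene symbol of their own was held by 41097 probe sets, 1801 had several symbols and 11777 none in GEO's platform annotation, and symbols were updated through RefSeq (GRCh38.p14). Each gene was read on its brightest probe set over the 12 arrays, tested where at least 3 arrays reached log2 5. Each knockdown was fitted on 6 arrays and the difference on 12, with limma 3.58.1 in R 4.3.3 (files read with data.table, version 1.17.8), Benjamini-Hochberg adjustment over all tested genes and a threshold of 0.05. Rose and fell are used of non-members past that threshold.

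The 4 genes, the lists and the partners were chosen with earlier results of these data known. Named genes were the targets, partners, the largest passing changes of each list (3 for FAM60A, 2 for SDS3), the 6 nearest profiles, chromosome neighbours, neighbours in rank and genes at -2 or below. No 2 arrays were identical. The number of arrays limits the precision. The self-test of the fit on simulated data was passed. Alternatives were the probe set rule, filters, scalings, limma settings, a replicate block and each array left out.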

Additional observations from a re-analysis of the deposited data

Results flagged for a closer look

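For these genes near the 4 in pathway or on the chromosome, the FAM60A change minus the SDS3 change passed limma's test in the 12-array fit, with adjusted p-values from 1.01e-06 to 0.0301. All values are log2 differences. Over all tested genes, 25.3% passed this test in either direction. Genes named from the lists were picked for large passing changes in a knockdown, so nothing is read from how many are given.

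In the ubiquitin lists the difference was -0.79 for SHPRH, 0.47 for TAB3 (0.19 with its probe sets averaged), 0.57 for RNF168, 0.62 for UBE2H and -0.53 for UBE2R2. Among prenylation genes it was 0.49 for PCYOX1L and 0.57 for PTAR1. In the phosphoinositide lists it was -0.41 for MTMR1, -0.32 for MTMR6, 0.48 for MTMR11 and 0.95 for INPP4B (0.58 with its probe sets averaged). Around RP2 it was -0.30 for ARL3, 0.27 for ARL2 and 0.94 for CFAP36, and CFAP36 had opposite calls. Of the chromosome neighbours, C2orf42 had 0.29, SNRPG -0.33, MAML2 0.43, CHST7 0.55 and JADE3 -0.34.

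The calls of MTMR1, ARL3, RNF168, MTMR6 and MAML2 were not made when the probe sets of each gene were averaged. Leaving out single arrays also ended the call of MTMR6 (4 arrays, adjusted p of up to 0.0665), MAML2 (7 arrays, up to 0.0725) and ARL3 (2 arrays, up to 0.0504) in limma. The causes of these differences were not tested.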

How the results depend on the processing

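All 4 genes fell by 1 or more in the FAM60A knockdown under every alternative run except the mean of all probe sets, where RP2 read -0.67 and 3 did. None did in the SDS3 knockdown. Filters, limma settings and the replicate block leave a mean change as it is, so they could not alter these counts. Leaving out probe sets of shared sequence kept each of the 4 genes on the same probe set. The genes were chosen on this contrast, so the counts are a description. Over the alternatives the FAM60A change ranged from -2.53 to -2.28 for PCYOX1, -2.43 to -1.74 for UBE2V2, -2.40 to -1.85 for MTMR2 and -1.47 to -0.67 for RP2.

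Scaling to the hybridisation spike-ins gave 3545 higher and 1717 lower genes in the FAM60A knockdown (24 and 13 in the lists), 1681 higher and 4365 lower in the SDS3 knockdown (9 and 27 in the lists) and 544 negative differences. Scaling to the poly-A spike-ins, chosen after seeing the data, gave 1353 higher and 2260 lower genes in the FAM60A knockdown (5 and 18 in the lists), 498 higher and 9062 lower genes in the SDS3 knockdown (3 and 53 in the lists) and 193 negative differences. It also turned SDS3 changes to -0.18 for PCYOX1, -0.14 for RCE1, -0.32 for UBE2N, -0.11 for SBF2, -0.17 for ARL3, -0.086 for UNC119, -0.054 for TBCD and -0.32 for TIA1. These controls were 0.32 brighter in the SDS3 knockdown than in its controls (exact permutation p = 0.1, the smallest for 3 against 3). Without shared-sequence probe sets ICMT read -0.12 and -0.024. With each array left out, 10 to 15 list genes were higher and 12 to 20 lower in the SDS3 knockdown. The lowest counts came without SDS3 control array 3 and SDS3 knockdown array 1.

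With the replicate number as a block, 3293 genes were higher and 2946 lower in the FAM60A knockdown, and 2667 and 3181 in the SDS3 knockdown. Deviations of same-numbered arrays had correlations from -0.118 to 0.034, so the numbers do not pair the samples. Across 3074 values of named genes under alternatives, 140 changed sign, 10 of them with a call on either side, 137 lost the call and 60 gained it; other causes were not tested. Dim probe sets, such as the second of RP2, limit what their changes can show.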
